A study of Mus musculus with 59 samples.

Results

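Bc1, the brain cytoplasmic RNA of rodent dendrites, was examined together with Fmr1, Fxr1, Fxr2, Cyfip1 and Cyfip2, which code for the fragile X protein FMRP, its 2 paralogs and its 2 cytoplasmic interactors. The 6 genes were taken by symbol from the 51456 Ensembl gene identifiers of the deposited expression table, and all 6 had the mean value of at least 10 that was required for testing, as did 16919 genes in all. The set was chosen by the measured values of fluoxetine against vehicle in wild-type mice, where Bc1 stood out, so the members are described in that comparison without a test. Every other comparison that includes WT vehicle or WT fluoxetine libraries, the drug by genotype, drug by sex and sex comparisons among them, shares libraries with that choice, and its p-values for the members are not independent of it. The RNA came from prefrontal cortex at postnatal day 25, from mice of the C57BL/6J strain, after 3 weeks of drug or vehicle (days 3 to 24) that reached the pups in their mother's milk before weaning. The mice were wild type (WT) or heterozygous for Ank2 (HT), the gene of ankyrin-B. What the changed Ank2 allele carries is not given in the sources used here. The 6 groups were WT vehicle, HT vehicle, HT fluoxetine, WT lithium and HT lithium with 10 libraries each, and WT fluoxetine with 9. Every group had 5 females and 5 males except WT fluoxetine with 4 males. Fluoxetine blocks the reuptake of serotonin, and lithium is given to stabilize mood. The labels call the libraries replicates without naming litters or mothers, so p-values measure only the spread between these libraries.

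Bc1 is a short untranslated RNA made by RNA polymerase III in neurons and carried into dendrites, where it is known as a repressor of translation initiation through the eIF4A helicase and poly(A)-binding protein. FMRP, encoded by Fmr1, is an RNA-binding protein that represses the translation of many synaptic mRNAs, and its loss causes fragile X syndrome. FXR1P and FXR2P are its autosomal relatives, and CYFIP1 and CYFIP2 bind FMRP and are also subunits of the WAVE regulatory complex, which controls branched actin downstream of Rac. Bc1 RNA, CYFIP1 and FMRP have been described in a shared translational repressor complex at the cap-binding protein eIF4E.

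The Bc1 transcript is shown here because the largest change among the members was measured on this 1 short RNA. It lies on the plus strand of chromosome 7 at 144914470 to 144914637 (GRCm38, ENSMUSG00000115783, annotated as a lincRNA by GENCODE), and the RefSeq model of 154 bases ends at 144914623. Capitals mark the A-rich stretch.

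Bc1: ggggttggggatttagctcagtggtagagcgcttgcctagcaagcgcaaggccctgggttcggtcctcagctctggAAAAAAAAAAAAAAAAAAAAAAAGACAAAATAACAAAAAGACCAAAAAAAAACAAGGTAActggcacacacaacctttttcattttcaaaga

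The A-rich stretch covers bases 77 to 136 of the 168 bases, counted from the 5′ end, and 49 of its 60 bases are A (81.7%, against 41.7% A in the whole transcript). The 5′ part held 1 match, at bases 14 to 24, to the A box of internal RNA polymerase III promoters, searched by its consensus on both strands and read as TAGCTCAGTGG. This consensus occurred in 2.42% of 135207 windows of 168 bases at annotated transcript starts. The B box consensus had no exact match in Bc1 and one in 0.427% of those windows. Only exact matches to a consensus were counted, so this search cannot show that Bc1 lacks a B box that departs from it. The library kit selects RNA with poly(A), and how completely an RNA with an internal A-rich stretch was captured was not measured. Of the 138 stretches of 31 bases in Bc1, at most 52 were also found on the same strand of any other gene (Lrrc17, mean value 9.71), and 9 other genes shared at least 1 on that strand. The most abundant of these was Sez6, at a mean of 7270 with 13 shared stretches. Over both strands 19 genes shared at least 1, and Akap5, at a mean of 5331, shared 47 on the other strand. The sources used here do not give whether strand entered the counting. Reads from such stretches cannot be assigned with certainty, so the level of Bc1 is uncertain to that extent.

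Library sums of the normalized values lay between 30.3 M and 33.8 M (median 32.3 M), with M as the prefix mega. Ank2 checked the genotype labels, with 22813 or less in all 30 HT libraries and 23284 or more in all 29 WT libraries. In the marker lists, excitatory neuron mRNAs (7 genes including Slc17a7 and Neurod2) summed to 111723 or more in every library. Olfactory bulb markers ranged from 211 to 9695 over the libraries. A set of 3 libraries, chosen after seeing the data, stood apart. HT fluoxetine female 2 had a summed choroid plexus level of 78678, against 105 to 265 in all others. HT fluoxetine female 4 had Xist at 9791 against 27076 or more in the other females. HT lithium male 1 had striatum markers at 15317, where HT vehicle reached 12703. Results that rest on these 3 libraries are given with and without them. Libraries with wider gaps in olfactory bulb markers were kept. That of WT fluoxetine male 4 was 3.45 log2 units from its group, against 1.56 for HT lithium male 1 in striatum markers. In bulk tissue, fewer cells of a type and less RNA per cell cannot be told apart.

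Per kilobase of the longest annotated transcript, Bc1 ranked first among the members, with a mean of 11586 normalized units per kb over the 59 libraries (range 1704 to 25444). This rank rests on division by its 0.168 kb. Undivided, the mean was 1946 for Bc1 and 27795 for Cyfip2, and how completely Bc1 was captured was not measured. Cyfip2 followed at 4174 per kb (3237 to 5167) and Fxr2 at 1049 per kb (964 to 1137). Fmr1 and Fxr1 were close together, at means of 624 ± 36.3 and 618 ± 32.7 per kb (SD over the 59 libraries), and their ranges overlapped. Cyfip1 was lowest, at 373 ± 42.7 per kb. Cyfip2 thus stood above its paralog Cyfip1 in every library, while the 3 members of the FMRP family lay nearer each other. Bc1 was also the most variable. Its residual SD within groups was 0.62 on the log2 scale, at the 99.8th percentile of the 2788 genes whose mean lay within 1.5 times its own, where the median was 0.10. That of Fxr2, the steadiest member, was 0.06, at the 8.94th percentile of the 2159 genes within 1.5 times its mean. Among all genes tested Bc1 was at the 95.5th percentile and Fxr2 at the 2.41st.

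In vehicle-treated cortex Bc1 did not pass the test between genotypes, whose WT vehicle libraries had entered the choice of the set. The lowest, median and highest normalized values were 837, 1172 and 1578 in the 10 WT vehicle libraries and 286, 1641 and 2441 in the 10 HT vehicle libraries. HT libraries lay on both sides of the WT range, 5 above it and 1 below it, so the groups overlapped. The 286 of HT vehicle female 1 was the lowest of all 59 libraries. The HT to WT ratio was 1.22 (log2 change 0.29, 95% confidence interval -0.26 to 0.85, limma adjusted p = 1). Without HT vehicle female 1 the log2 change was 0.53 and without HT vehicle female 2 it was 0.18. None of the 6 members was called in this comparison, in which limma called 0.00591% of the genes tested (1 gene, with 578 at an unadjusted p under 0.05).

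Under fluoxetine Bc1 stood higher in both genotypes. In WT mice, the comparison that led to its choice, the 9 fluoxetine libraries had 910, 2548 and 3765 as lowest, median and highest value, and 7 of them lay above the highest WT vehicle library. The ratio was 2.01 (log2 1.01). Cyfip2 was at 1.12 times vehicle there, and the other 4 members were between 0.954 (Fxr1) and 1.04 (Fmr1), where 14.8% of all genes tested were called. No test of the members is given for this contrast.

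In HT mice, which share no library with the WT comparison, Bc1 rose 1.86-fold with fluoxetine. The 10 HT fluoxetine libraries had 899, 2643 and 4275 as lowest, median and highest value, with a mean of 2792 ± 1068 (SD), against 1561 ± 633 in the 10 HT vehicle libraries. Of the fluoxetine libraries, 9 lay above the vehicle median and 5 above the highest vehicle library, and the ranges overlapped. The log2 change was 0.90 ± 0.28 (SE, 95% confidence interval 0.34 to 1.45, limma adjusted p = 0.0223). Together with Cyfip2, Bc1 made 2 of 6 members called, where 14% of all genes tested were called.

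The size of this rise depended on single libraries. Without HT vehicle female 1 the log2 change was 0.66 (limma adjusted p = 0.0634), without HT fluoxetine female 4, which had the highest Bc1 of all libraries, 0.77 (adjusted p = 0.0567), and without HT vehicle male 3, 0.82 (adjusted p = 0.0501). Over all 20 libraries left out in turn it stayed between 0.66 and 1.05. Without the 3 libraries that stood apart it was 0.92 (adjusted p = 0.0257), and with the spread taken from the compared groups alone the adjusted p was 0.0839.

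The Bc1 differences with lithium did not pass the test. In WT lithium the lowest, median and highest values were 849, 1301 and 2862, and 3 of the 10 libraries lay above the WT vehicle range. The log2 change in WT, against the vehicle libraries that entered the choice of Bc1, was 0.33 (95% confidence interval -0.23 to 0.88, limma adjusted p = 0.676), and without WT lithium male 3 it was 0.21. In HT lithium the values were 946, 2450 and 3229, with 5 of 10 libraries above the HT vehicle range, 1.51-fold in the mean (log2 0.60, interval 0.04 to 1.15, limma adjusted p = 0.207). Without HT vehicle female 1 the log2 change in HT was 0.36. None of the 6 members was called for lithium in WT, against a background of 2.22% of the genes tested.

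The comparison of the fluoxetine effects between genotypes contains the contrast on which the set was chosen and is a description: the difference for Bc1, HT minus WT, was -0.11 on the log2 scale. That of the lithium effects was 0.27 (95% confidence interval -0.52 to 1.05, limma adjusted p = 0.918). For both differences limma called 0% of the genes tested, with 1291 and 1139 genes at an unadjusted p under 0.05. Within fluoxetine, HT was at 1.14 times WT (limma adjusted p = 0.798), against WT fluoxetine libraries that had entered the choice of the set. Within lithium, HT was at 1.47 times WT (log2 0.56, interval 0.00 to 1.12, limma adjusted p = 0.304). No member was called in either, with backgrounds of 0.0118% (2 genes, 2659 at an unadjusted p under 0.05) and 0.55%. HT fluoxetine stood at 1.23 times HT lithium for Bc1 (interval 0.839 to 1.81, adjusted p = 0.519), a log2 difference of 0.30 that was 0.17 without HT fluoxetine female 4 and 0.19 without HT lithium male 2.

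**Figure D1:**
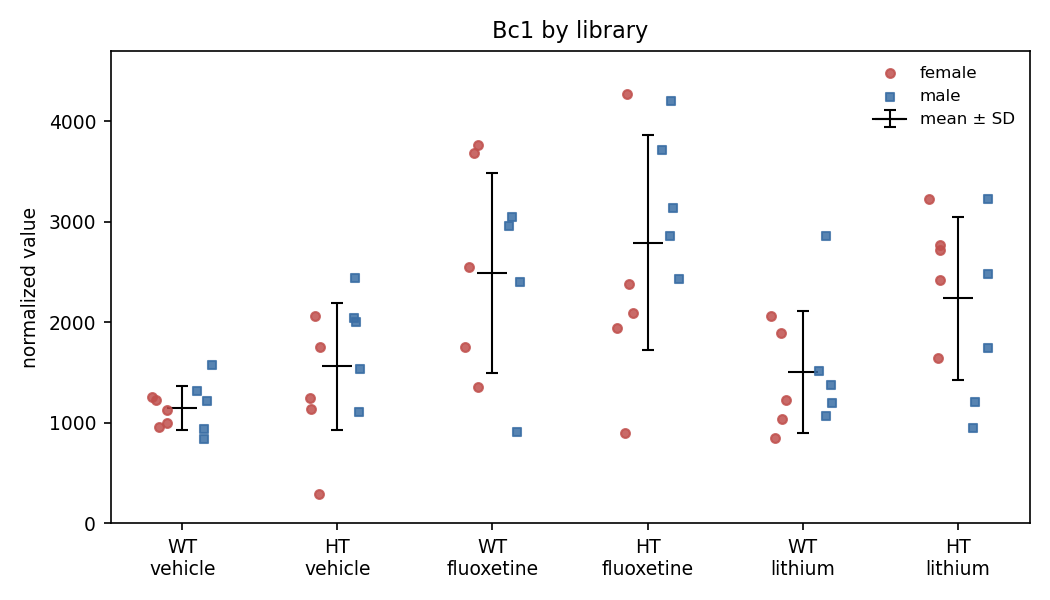
Normalized value of Bc1 (vertical axis, authors' library-scaled units) in each of the 59 libraries by genotype and drug, females as circles and males as squares, with the mean and SD of each group as black bars. WT vehicle libraries sit between 837 and 1578, while HT fluoxetine libraries spread from 899 to 4275.

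By sex, no difference in the Bc1 changes passed the test. In HT mice the log2 change with fluoxetine was 0.93 in females and 0.86 in males. With lithium it was 1.21 in females, from a mean of 1295 ± 679 (SD, n = 5) to 2558 ± 585, and -0.02 in males, from 1826 ± 514 to 1919 ± 936. The limma adjusted p in females alone was 0.063. Without HT vehicle female 1, the female changes in HT were 0.73 with lithium and 0.46 with fluoxetine. In WT the lithium changes were 0.27 in females and 0.39 in males. The drug by sex difference, over both genotypes, was 0.56 for lithium (95% confidence interval -0.23 to 1.34, limma adjusted p = 0.527, and 0.32 without HT vehicle female 1). For fluoxetine it was 0.16 (limma adjusted p = 0.901). The fluoxetine difference is made in part of the WT comparison by which the set was chosen, so this p-value is not independent of the choice. Female minus male over all groups was -0.14 (interval -0.46 to 0.19, adjusted p = 0.677). No member was called for sex (background 2.1%) or for either drug by sex difference, each with 0% called by limma and 2146 genes for fluoxetine and 2500 for lithium at an unadjusted p under 0.05.

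The relation of the values to transcript length moved with fluoxetine. Bc1 stood higher where most short RNAs stood lower, and the part of length in the Bc1 change was not tested. In each library the slope of the log2 deviation on log2 transcript length was computed, with genes below a mean of 250 left out. This length slope averaged -0.03 in WT vehicle, -0.02 in HT vehicle, 0.05 in WT fluoxetine and 0.03 in HT fluoxetine, so that short transcripts read relatively lower under fluoxetine. In WT lithium it averaged -0.03, near WT vehicle. In HT lithium it was -0.0030 to 0.0625 in the 5 females and -0.0678 to -0.0215 in the 5 males, a split whose part in the Bc1 values by sex was not tested. Among the other 334 genes above that mean with a longest transcript of at most 1000 bases, the median log2 change with fluoxetine in HT was -0.18, and 35 had a positive value. Of these 334, 9 were called higher and 196 lower, beside 6.63% and 7.38% of all genes tested. Bc1 with its 168 bases was called higher. With lithium in HT 5 of the 334 were called higher and 30 lower, beside 2.75% and 2.26% of all genes. With lithium in WT 1 was called higher and 1 lower, beside 1.33% and 0.892% of all genes. With a linear trend on length and GC content removed from each library, the Bc1 change in HT was 1.20 for fluoxetine (limma adjusted p = 0.00236) and 0.72 for lithium (adjusted p = 0.103). HT vehicle female 1, the library with the lowest Bc1, had a slope of 0.0748, above the other 9 HT vehicle libraries, and the part of this in the result was not tested. The gene next to Bc1, LTO1, begins 463 bases beyond it and was not called: its mean was 523 and its log2 change with fluoxetine in HT -0.23 (adjusted p = 0.162).

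Fmr1 mRNA stayed within narrow limits in all 6 groups. It is transcribed from the X chromosome (68678541 to 68717963, plus strand, ENSMUSG00000000838). The lowest, median and highest values were 2510, 2761 and 3065 in WT vehicle and 2521, 2679 and 3316 in HT vehicle. They were 2590, 2890 and 3105 in WT fluoxetine and 2416, 2776 and 2923 in HT fluoxetine. With lithium they were 2511, 2692 and 2847 in WT and 2624, 2760 and 2880 in HT. All ranges overlapped, and the highest single value, 3316, was that of HT vehicle female 1. The log2 change with fluoxetine in HT was -0.02 (95% confidence interval -0.09 to 0.05, limma adjusted p = 0.783) and with lithium in HT 0.00 (interval -0.07 to 0.07, adjusted p = 0.995) (0.952 to 1.05 as a fold). The drug by sex difference, female minus male, was -0.11 with fluoxetine (interval -0.22 to -0.01, limma adjusted p = 0.345) and -0.12 with lithium (interval -0.22 to -0.02, adjusted p = 0.248), and neither passed. The fluoxetine difference uses the WT comparison by which the set was chosen, and its p-value is not independent of that choice.

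Fxr1 and Fxr2, the autosomal relatives, were called in no comparison tested. Fxr1 lies on chromosome 3 (34019943 to 34070322, plus strand, ENSMUSG00000027680) and overlaps Dnajc19 on the other strand. Whether the counting used strand is not given in the sources used here, so reads of such pairs may not be told apart. Its medians were 1868 in WT vehicle, 1840 in HT vehicle, 1786 in WT fluoxetine, 1824 in HT fluoxetine, 1936 in WT lithium and 1872 in HT lithium, with single libraries from 1676 to 2063. The log2 change was -0.03 with fluoxetine in HT (95% confidence interval -0.10 to 0.04, limma adjusted p = 0.573) and 0.02 with lithium in HT (adjusted p = 0.837). Fxr2 lies on chromosome 11 (69632990 to 69653297, plus strand, ENSMUSG00000018765). Its medians ran from 3033 in WT fluoxetine to 3189 in WT lithium, with single libraries from 2845 to 3354. Its log2 change was 0.01 with fluoxetine in HT (interval -0.05 to 0.07, adjusted p = 0.897) and 0.03 with lithium in HT (interval -0.03 to 0.09, adjusted p = 0.607). For both genes the libraries of each drug group overlapped those of its vehicle group.

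Cyfip2 was the member whose mRNA rose with both drugs in HT mice. The gene lies on the minus strand of chromosome 11 (46193850 to 46312859, ENSMUSG00000020340) and overlaps Fndc9 on the plus strand and the pseudogene Gm12568 on its own strand, the latter with a mean value of 0.996. The lowest, median and highest values in HT vehicle were 22109, 26809 and 29701. In HT fluoxetine they were 26469, 29209 and 34407, and in HT lithium 28269, 28992 and 31106. All 10 HT lithium libraries lay above the HT vehicle median, and 9 of the 10 HT vehicle libraries lay below the lowest HT lithium library, with HT vehicle female 1 as the exception at 29701.

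Fluoxetine raised Cyfip2 1.14-fold in HT (log2 0.18 ± 0.05 SE, 95% confidence interval 0.09 to 0.28, limma adjusted p = 0.00379). Lithium raised it 1.13-fold in HT (interval of the fold 1.06 to 1.20, adjusted p = 0.0181), the only 1 of 6 members called there, where 5.01% of all genes tested were called. Both contrasts use the same HT vehicle libraries. Over single libraries left out, the lithium call was lost without HT vehicle female 3 (log2 0.15, adjusted p = 0.0544) and without HT vehicle female 4 (0.15, adjusted p = 0.0612), the 2 lowest of their group. The fluoxetine call was lost after quantile normalization (log2 0.07, adjusted p = 0.101) and after removal of the length and GC trend (0.13, adjusted p = 0.0616).

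In WT mice Cyfip2 had 21556, 26401 and 28964 in vehicle and 24518, 26384 and 29730 in lithium, a log2 change of 0.03 (95% confidence interval -0.07 to 0.12, limma adjusted p = 0.869). WT fluoxetine, untested, had 25531, 28978 and 34004. HT lithium stood at 1.12 times WT lithium (log2 0.16, interval 0.07 to 0.25, limma adjusted p = 0.0825), and all 10 HT lithium libraries exceeded the WT lithium median. This difference passed when only the compared groups entered the model (adjusted p = 0.014). The lithium by genotype difference itself was 0.15 (interval 0.02 to 0.28, limma adjusted p = 0.689) and did not pass, so the lithium effects in HT and WT were not shown to differ. In vehicle the genotypes were at a ratio of 1.01 (interval 0.944 to 1.07). Within HT, the lithium change of Cyfip2 was 0.24 in females (adjusted p = 0.0217) and 0.11 in males (adjusted p = 0.673), and the lithium by sex difference over both genotypes was 0.16 (adjusted p = 0.225).

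Excitatory neuron markers had higher medians in the HT drug groups than in HT vehicle, as Cyfip2 and Bc1 did. Their summed level was 125768 to 161532 in HT vehicle (median 152818), 151432 to 193866 in HT fluoxetine (median 172328) and 139262 to 177000 in HT lithium (median 158127). Of the 7 markers, 2 were called higher with fluoxetine and 1 with lithium in HT (over all genes, 6.63% and 2.75%), none lower, and none was at 0 in any library. Of the other marker lists, blood cells had 4 of 5 called lower with fluoxetine in HT (summed level 8105 to 14633 in HT vehicle, 4215 to 9942 in HT fluoxetine), where 7.38% of all genes were called lower. Endothelial cells had 2 of 6 lower, astrocytes 1 of 6 lower and microglia 1 of 6 higher. With lithium in HT, 1 of 6 inhibitory neuron markers and 1 of 6 endothelial markers were called higher, beside 2.75% of all genes. No marker of oligodendrocytes, choroid plexus, striatum, olfactory bulb or dentate gyrus was called with either drug in HT, though their levels differed. The median log2 changes with fluoxetine and lithium in HT were -1.07 and -0.83 for olfactory bulb markers. They were -0.37 and -0.03 for striatum, 0.64 and -0.21 for choroid plexus, 0.32 and -0.48 for dentate gyrus and 0.18 and -0.05 for oligodendrocytes. The part of these in the Bc1 and Cyfip2 results was not tested.

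Cyfip1 passed the test between the 2 drugs in HT mice, and neither drug passed against vehicle there. The gene lies on chromosome 7 (55841745 to 55932602, plus strand, ENSMUSG00000030447) and overlaps Nipa2 on the other strand. The lowest, median and highest values were 2164, 2382 and 2599 in HT vehicle, 2180, 2487 and 4150 in HT fluoxetine and 2151, 2251 and 2402 in HT lithium. HT fluoxetine stood 1.14-fold above HT lithium (log2 0.18 ± 0.05 SE, limma adjusted p = 0.0173), with 6 of 10 fluoxetine libraries above the highest lithium library. It was 1 of 6 members called, where 13.1% of the genes tested were called.

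The 4150 belonged to HT fluoxetine female 2, the library with choroid plexus markers at 78678, myelin markers at 461905 and dentate gyrus markers at 8750. Without the 3 libraries that stood apart the log2 difference was 0.09 (limma adjusted p = 0.137), and the call was lost. With the compared groups alone in the model it was also lost (adjusted p = 0.153). The difference was 0.27 in females (adjusted p = 0.0318), who include that library, and 0.10 in males (adjusted p = 0.518). Between these groups 3 of 6 microglia markers (summed level 9632 to 13180 in HT fluoxetine, 7911 to 10388 in HT lithium) and 2 of 6 astrocyte markers (39446 to 50980 and 36148 to 42835) were called higher, and their part in the result was not tested. Of the 7 choroid plexus markers none was called and 3 were at 0 in some library. Against vehicle in HT, Cyfip1 was at 1.09-fold with fluoxetine (adjusted p = 0.139, log2 0.12, which was 0.03 without those 3 libraries and passed at 0.15 without HT fluoxetine female 1, adjusted p = 0.0471) and at 0.956-fold with lithium (adjusted p = 0.536). In the WT groups its medians were 2373 in vehicle, 2476 in fluoxetine and 2348 in lithium.

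**Figure D2:**
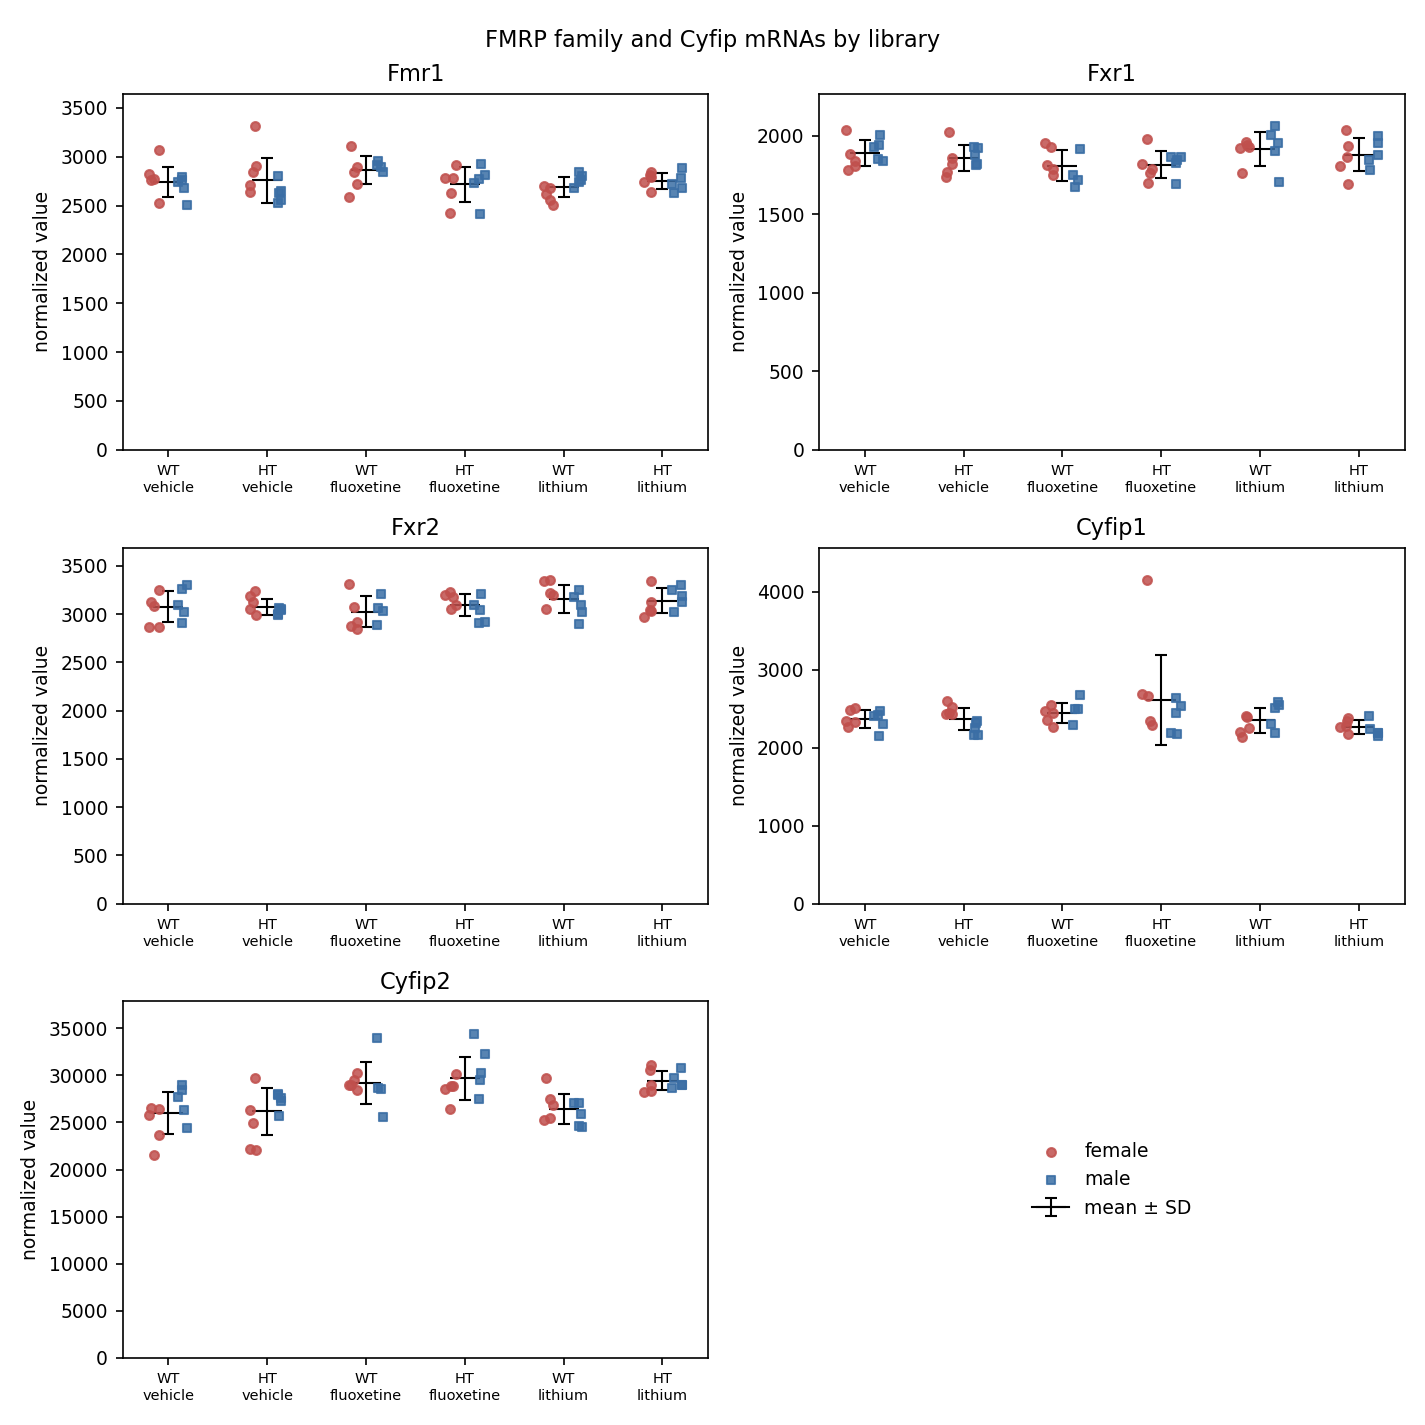
Normalized values of Fmr1, Fxr1, Fxr2, Cyfip1 and Cyfip2 (vertical axes from 0, authors' library-scaled units) in each library by genotype and drug, females as circles and males as squares, with group mean and SD. HT lithium libraries of Cyfip2 all lie at 28269 or above, and the single Cyfip1 value of 4150 is HT fluoxetine female 2.

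Set side by side, the log2 changes of Bc1 with either drug ran from 0.33 to 1.01 on the log2 scale. Those of Cyfip2 ran from 0.03 to 0.18, those of Cyfip1 from -0.06 to 0.12, and those of the 3 FMRP family genes from -0.07 to 0.06. The 1.01 is fluoxetine in WT, by which Bc1 was chosen, and the 0.33 is lithium in WT, with the same vehicle libraries. The place of Bc1 above the others in WT thus follows from the choice. In HT, Bc1 changed by 0.90 with fluoxetine and 0.60 with lithium. The 2 drug contrasts of a genotype share their vehicle libraries, so their agreement is no independent evidence. On this log2(value + 1) scale a change of a low gene would be understated, but all members had means of 1862 (Fxr1) or more.

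**Figure D3:**
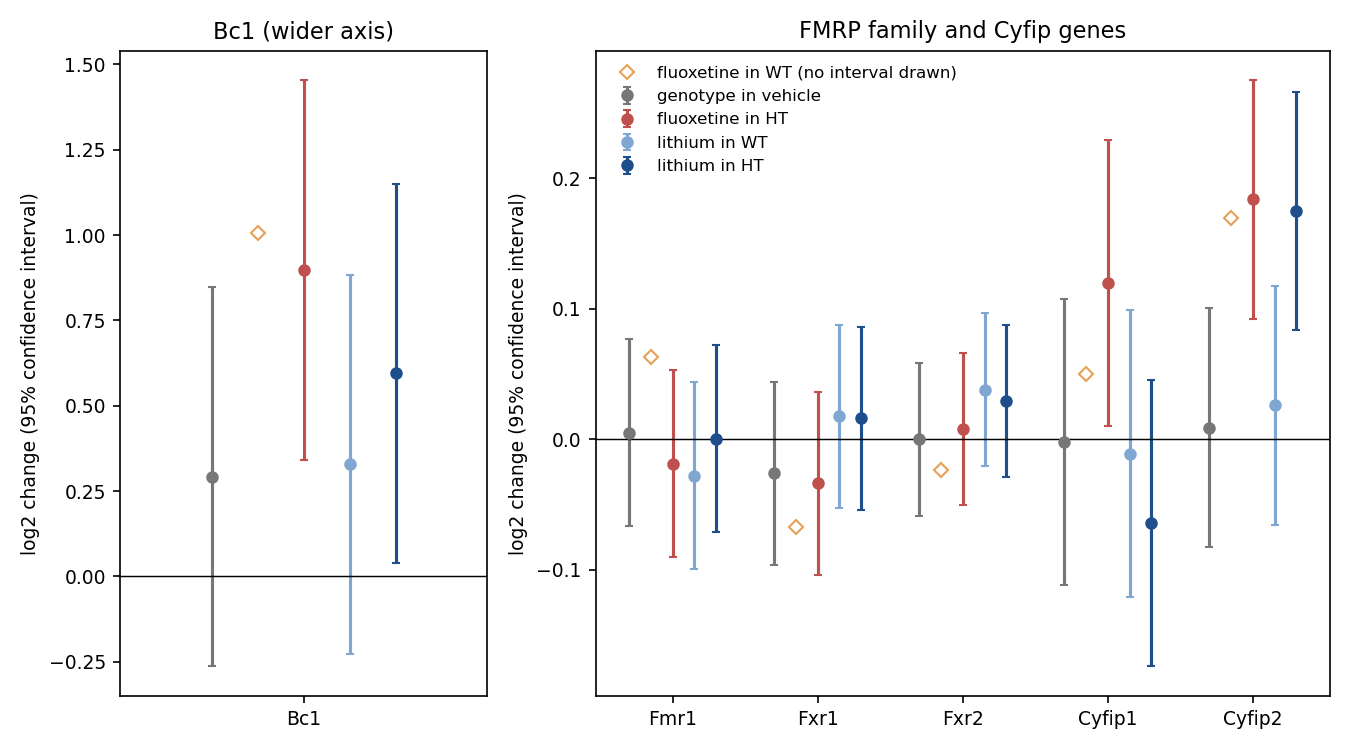
Log2 change (vertical axis) of each member for genotype in vehicle and for each drug against vehicle in each genotype, with 95% confidence intervals from the limma model, and open diamonds without interval for fluoxetine in WT. The left panel holds Bc1 on a wider axis, where the interval for fluoxetine in HT spans 0.34 to 1.45, while the intervals of Fmr1, Fxr1 and Fxr2 include 0.

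Genes linked to the members by function were taken from 8 lists that share some genes, described by counts and medians beside those of all genes tested. With fluoxetine in HT 6.63% of all genes were called higher and 7.38% lower, with lithium in HT 2.75% and 2.26%, and the median log2 change over all genes was -0.00 in both. With libraries scaled to equal sums the median over all genes with fluoxetine was -0.04. Among 52 mRNAs known as FMRP-bound, 27 were called higher and 1 lower with fluoxetine in HT, and 31 and 1 without the 3 libraries that stood apart. Their median log2 change was 0.13. Dync1h1, the dynein heavy chain, rose by 0.55 ± 0.07 on the log2 scale (SE, limma adjusted p = 2.84e-07), the postsynaptic scaffold Shank1 by 0.35 ± 0.06 and the ankyrin-G gene Ank3 by 0.25 ± 0.04. These are long mRNAs, with a median longest transcript of 8.38 kb against 3.26 kb over all genes. After removal of the length and GC trend 8 of the 52 were called higher and 1 lower, with a median of 0.05, where 10.4% of all genes were called. With lithium in HT 8 were called higher and 1 lower (median 0.07), including Mycbp2, a ubiquitin ligase gene, at 0.12 and the channel gene Hcn2 at 0.15. After removal of the length and GC trend it was 2 higher and 2 lower with lithium in HT (median 0.04), where 4.89% of all genes were called. In WT lithium 1 was called higher and 1 lower (1.33% and 0.892% of all genes), and in the vehicle genotype comparison none was called.

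Dendritically localized mRNAs, carried into dendrites as Bc1 is, had 8 of 30 called higher and none lower with fluoxetine in HT (median 0.15). Without the 3 libraries that stood apart, and also after removal of the length and GC trend (10.4% of all genes called), it was 11 of 30. With equal sums it was 7 of 30 (15.2% of all genes called). After quantile normalization it was 5 of 30 (12.6% of all genes called), and the list's median was 0.07. Eef2, the translation elongation factor, rose by 0.19 ± 0.03 (SE, limma adjusted p = 2.18e-06) and Ppp1r9b, the spine protein spinophilin, by 0.25 ± 0.05. With lithium in HT 2 were called higher and 1 lower (median 0.07). Bdnf, the neurotrophin, rose 1.36-fold (adjusted p = 0.00195) and Ddn, dendrin, 1.17-fold, while the elongation factor Eef1a1 fell to 0.930-fold. Proteins of dendritic RNA granules and RNA-binding partners had 5 of 40 called higher and 1 lower with fluoxetine in HT (median 0.05; 3 and 1 without the 3 libraries that stood apart), with log2 changes of 0.12 for Stau1 and 0.09 for Caprin1. With equal sums, which lowers all genes alike, none of the 40 was called higher and 2 lower, and the median was 0.02. Stau1, a double-stranded RNA-binding transport protein, also rose with lithium in HT, to 1.11-fold (adjusted p = 0.00124), and Atxn2 rose by 0.13 on the log2 scale, while the stress granule protein gene Tia1 fell to 0.859-fold.

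Translation initiation and cap-binding genes, the machinery on which Bc1 and CYFIP1 act, had 10 of 40 called lower and 4 higher with fluoxetine in HT (median -0.04). Eif1 fell to 0.841-fold (limma adjusted p = 1.92e-08), Eif4a1, which codes for the helicase, to 0.846-fold (adjusted p = 2.16e-07) and Paip2b, a regulator of poly(A)-binding protein, to 0.869-fold. After removal of the length and GC trend 9 were called lower and 3 higher (10.4% of all genes called), and the list's median was -0.00. With equal sums it was 17 lower and 1 higher (15.2% of all genes called). After quantile normalization it was 14 lower and 2 higher (12.6% of all genes called). With lithium in HT 5 were called lower and none higher (median -0.03), Eif3m at 0.910-fold, Eif4h at 0.938-fold and Eif4a1 at 0.930-fold. The number lower with lithium was 3 with the trend removed (4.89% of all genes called), with none higher. It was 8 with equal sums (5.35%) and 9 after quantile normalization (4.84%), again with none higher.

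WAVE complex and Rac genes, the other setting of the CYFIP proteins, had 5 of 24 called higher and 2 lower with fluoxetine in HT (median 0.03), and 3 higher and 1 lower without the 3 libraries that stood apart. Wasf2 rose 1.29-fold (limma adjusted p = 2.27e-05), Wasf1 1.16-fold and Nckap1, the direct partner of CYFIP in the complex, 1.13-fold. With equal sums it was 3 higher and 5 lower (median -0.00), where 15.2% of all genes were called. No gene of the 24 was called with lithium in HT. The lowest adjusted p there, 0.0501, was that of the GTPase gene Rac1 at 0.953-fold, and Rac3 (0.858-fold) and Pak1 (1.11-fold) had larger ones.

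Genes of RNA polymerase III and its factors showed no common direction. With fluoxetine in HT 2 of 28 were called higher and 3 lower (median -0.01), near the shares over all genes. The log2 change was 0.14 for Larp1, a gene of the list that codes for no RNA polymerase III factor. It was 0.13 for Gtf3c1, a subunit of the factor that binds the B box, and -0.17 for the shared polymerase subunit Polr1d. After removal of the length and GC trend none of the 28 was called. With lithium in HT Larp1 was at 0.11 and the initiation factor gene Brf1 at -0.13 on the log2 scale, each called, and Bdp1 at 0.16 was not (adjusted p = 0.0888). Of 27 RNA polymerase III transcripts and abundant noncoding RNAs, 16 were tested. Malat1, a nuclear RNA, rose by 0.59 on the log2 scale with fluoxetine in HT (limma adjusted p = 7.25e-05), Kcnq1ot1 by 0.29 and Snhg14 by 0.20, and 1 fell (list median -0.03). Meg3 fell to 0.830-fold and Gas5 to 0.865-fold with lithium in HT, where none rose (list median -0.10) and Peg13 (log2 0.13, adjusted p = 0.0641) was not called. The list holds RNAs of RNA polymerase II as well, and all 6 of these named RNAs are such.

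Group I metabotropic glutamate receptor and mTOR signalling genes, which act upstream of dendritic translation, had 6 of 33 called higher and none lower with fluoxetine in HT (median 0.06; 8 and 2 without the 3 libraries that stood apart), with log2 changes of 0.12 for Ubqln1 and Rictor and 0.10 for Akt1. With equal sums it was 1 higher and 2 lower (median 0.02), where 15.2% of all genes were called. Lithium in HT lowered the kinase gene Mapk3 to 0.857-fold (limma adjusted p = 0.000949), and the phosphatase gene Ptpn5 rose 1.17-fold and Ubqln1 1.07-fold.

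**Figure D4:**
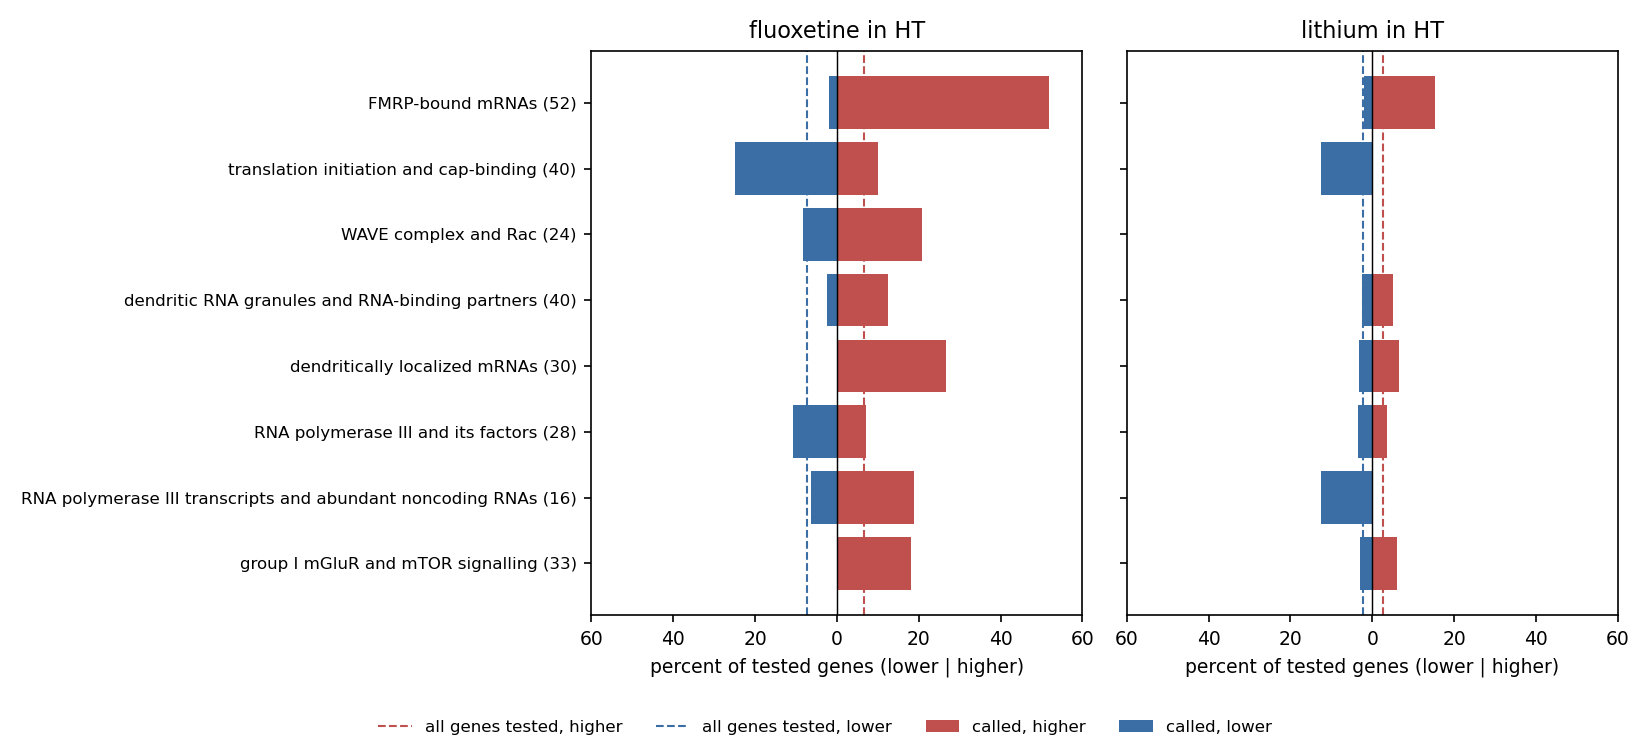
Percent of the tested genes of each list called higher (right) or lower (left) in HT mice with fluoxetine and with lithium, at an adjusted p under 0.05, with the number tested in parentheses and dashed lines for all genes tested. FMRP-bound mRNAs reach 27 of 52 called higher with fluoxetine and 8 of 52 with lithium, with no length and GC trend removed. After its removal these were 8 and 2.

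The genes whose values followed each member most closely across libraries were found by Pearson's r after group means were subtracted, over the 59 libraries and 12856 genes. They share library, depth and scaling with the member, and the values are a description. For Bc1 these were Tmsb10 (0.67), mt-Atp8 (0.62), Col6a1 (0.59) and Rps25 (0.58). For Cyfip2 they were closer, with Ptprn2 at 0.92, Cnksr2 at 0.91, and Spock1 and Reps2 at 0.90. Cyfip1 had Fgfr1 and Cpne7 at 0.79 and Fibcd1 and Tmem72 at 0.78, and without the 3 libraries that stood apart these were 0.51, 0.35, 0.28 and 0.42. For the other 5 members the named values moved by less than 0.1 without those libraries. Fmr1 had Ptpn4 (0.76), Scamp1 (0.75), Fnip1 (0.73) and Clcn3 (0.72), and Fxr1 had Cnot4 (0.80), P4ha1 (0.76), Pdia4 (0.71) and Daam1 (0.70). Fxr2 had the weakest, from Srfbp1 (0.53) through Rnf40 and Nrg2 to Igdcc4 (0.47). Over the 6 group means alone, Bc1 was closest to Zdhhc8, Ptprb, Myo1e and Susd4, at 0.992 to 0.998. Between the members themselves, r over the libraries was -0.46 for Cyfip1 with Cyfip2, -0.45 for Fmr1 with Cyfip1, -0.29 for Bc1 with Cyfip1 and 0.28 for Fmr1 with Cyfip2. Without those 3 libraries these were -0.53, -0.31, -0.14 and 0.25.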

How the data were processed

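The deposited table holds signal: gene-level values that the authors estimated with Salmon 0.11.2 and normalized with DESeq2 1.19.11 under R 3.6.0 on GRCm38, per the submitters' processing notes, which give no settings. Per the labels, a TruSeq Stranded mRNA kit made the libraries. Of 51456 identifiers, 51285 matched GENCODE M21 gene models, and the rest held 0.0033% of the summed values. Read counts were not recovered from these values, so the planned branch for counts was not used. Sequencing depth is unknown, and precision was taken from the spread between libraries.

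Genes whose mean over the libraries reached 10 were kept (16919), and log2(value + 1) was modelled. All 59 libraries entered a single fit of 12 group means (genotype, drug and sex), leaving 47 residual degrees of freedom, in R 4.3.3 and limma 3.58.1 with its trend and robust options. Drug and genotype effects were averaged over the sexes. P-values were two-sided and Benjamini-Hochberg adjusted over all genes tested, and genes with an adjusted p under 0.05 were called. The fitting was tested on simulated data. Python 3.11.15 with NumPy 2.4.6, pandas 2.3.3 and matplotlib 3.10.9 served for annotation, sequence searches and plots. Transcript sequences came from GENCODE M21. The RefSeq model of Bc1 was from RefSeq GRCm38.p6.

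Members and gene lists were chosen with earlier results of these data known. Named besides the members and Ank2 were up to 3 genes per list with the smallest p for each drug in HT, the 4 genes most correlated with each member (predicted genes left out, mean of at least 50), and for Bc1 also the 4 closest over the 6 group means. Genes named for overlap, shared sequence or position, and Xist, were outside this rule, and 1 gene within it is not reported here. Same-numbered libraries were not treated as pairs in the main fit. Over the 8 comparisons checked, their median correlations lay between -0.06 and 0.07, and a single pair reached 0.33 (genotype in lithium). These values cannot show whether such libraries shared a litter or a batch. Alternatives were other pseudocounts, filters, scalings, removal of a length and GC trend, the compared groups alone, each sex alone, each library left out, and, chosen after seeing the data, leaving out 3 libraries together and, for Bc1 in females, HT vehicle female 1. List counts under other scalings were also added after seeing the data.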

Additional observations from a re-analysis of the deposited data

Results flagged for a closer look

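Over the 72 groups examined (6 genes in 12 groups of 4 or 5 libraries), 4 had 1 library far from the rest, measured by its gap to the nearest library over the group's range. Chance alone gives about 1 such group in 20. Bc1 was at 2862 in WT lithium male 3, with the other 4 libraries of the group between 1064 and 1515. Cyfip1 was at 4150 in HT fluoxetine female 2, with 2294 to 2685 in the others of its group, and this library also stood apart in its choroid plexus markers. Fxr1 was at 1692 in HT fluoxetine male 4 (others 1828 to 1866) and at 1764 in WT lithium female 5 (others 1924 to 1963).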

How the results depend on the processing

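Under other pseudocounts, a mean of at least 50 and a fit that was not robust, every count of called genes stayed within 1.5 times and no member's call changed. Without a filter on low values the counts were 4 for genotype in vehicle, 212 for lithium in WT, 448 for lithium in HT, 31 for genotype in lithium and 172 for sex. With libraries scaled to equal sums they were 241 for genotype in lithium, 1 for lithium by genotype and 1 for lithium by sex, and the share of called genes that were higher with fluoxetine in HT went from 47.3% to 25.4%. After quantile normalization they were 5 for genotype in fluoxetine and 5 for lithium by sex. With the length and GC trend removed they were 1154 for fluoxetine in WT and 161 for sex, and Fxr2 for genotype in fluoxetine turned to -0.0031. With the compared groups alone they were 5 for genotype in fluoxetine, 449 for genotype in lithium, 1460 for fluoxetine against lithium in HT and 87 for lithium by sex. In females alone they were 1448 for fluoxetine in WT, 1480 for fluoxetine in HT, 199 for lithium in WT, 66 for genotype in fluoxetine, 646 for genotype in lithium, 8 for lithium by genotype and 734 for fluoxetine against lithium in HT. In males alone they were 896, 569 and 11 for the first 3 of these, 3 for lithium in HT, 1 for genotype in fluoxetine, 2 for genotype in lithium and 1168 for fluoxetine against lithium in HT. Without the 3 libraries that stood apart they were 1 for genotype in fluoxetine and 148 for genotype in lithium. The causes were not tested.

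Members' changes smaller than their standard error were not followed for sign. Of the uncalled log2 changes larger than it, those that turned sign were, in females alone, Bc1 for genotype in vehicle (-0.036) and for fluoxetine against lithium in HT (-0.28), Fxr2 for lithium in HT (-0.0081) and Cyfip1 for genotype in lithium (0.0072). In males alone they were Bc1 (-0.020) for lithium in HT, Fxr2 for lithium in WT (-0.013) and genotype in fluoxetine (-0.0073), and Cyfip1 for genotype in fluoxetine (-0.057), which also turned without the 3 libraries (-0.022) and ranged from -0.0058 (without HT fluoxetine female 2) to 0.10 with 1 library left out. In a single sex, the fluoxetine change of Bc1 in HT did not pass (adjusted p = 0.125 in females and 0.257 in males), nor that of Cyfip2 in males (0.148). Without HT fluoxetine female 1 the Cyfip1 change with fluoxetine in HT passed (adjusted p = 0.0471). Leaving out 1 library at a time gave 1 to 132 called genes for genotype in fluoxetine, 15 to 141 for genotype in lithium, 1 to 2 for genotype in vehicle, 0 to 5 for lithium by genotype, 0 to 26 for lithium by sex, 356 to 1597 for lithium in HT, 214 to 435 for lithium in WT and 199 to 1011 for sex.

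With the replicate number as a block within each sex, the Bc1 change with fluoxetine in HT had an adjusted p of 0.0243 and 2349 genes were called in that comparison, and no member's call changed. The sex comparison has no value with this block, since blocks lie within a sex. Depth limits could not be given, since the values hold no read counts.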
